A study of Mus musculus with 12 samples.

Results

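Cyclic nucleotide phosphodiesterases are the enzymes that break down cAMP and cGMP, the second messengers through which dopamine receptors act on the medium spiny neurons of the striatum. D1 receptors raise cAMP in the neurons of the direct pathway, D2 receptors lower it in those of the indirect pathway, and the phosphodiesterases set how long and how far each rise spreads. The family members described here fall into 4 classes by substrate and regulation: the calcium/calmodulin-activated enzymes that hydrolyse both messengers (Pde1a, Pde1b and Pde1c), the dual-substrate enzymes Pde2a, which cGMP stimulates, and Pde10a, a hallmark of spiny neurons, the cAMP-specific, rolipram-sensitive enzymes (Pde4a, Pde4b and Pde4d), and the cAMP-specific, rolipram-insensitive enzymes (Pde7b and Pde8b). The 10 genes were taken by symbol from the deposited transcript table, in which they have 175 transcript models of 189364 that carry a gene name, and 10 of 52169 symbols.

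The libraries came from striatal punches of female C57BL/6J mice in which 6-OHDA, a toxin taken up by catecholamine neurons, had been injected into the medial forebrain bundle of the right hemisphere under protection of noradrenergic neurons with desipramine. Every mouse of all 4 groups carried this lesion and every mouse received L-DOPA (10 mg/kg) with benserazide (7.5 mg/kg) by intraperitoneal injection, so that no group is free of drug. Acute mice were killed 1 h after a single dose and chronic mice 1 h after the last of 9 daily doses, and each treatment gave 3 libraries of lesioned and 3 of unlesioned striatum. The model is a toxin lesion of 1 side, with the opposite striatum of lesioned and treated mice as the reference.

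The 12 libraries held between 87695043 and 173116525 transcript counts; a read counts on each transcript model that it overlaps, so these totals exceed the reads sequenced. The spiny neuron markers Ppp1r1b, Rgs9, Bcl11b, Foxp1 and Arpp21, summed, lay between 810 and 1220 counts per 1000000 (CPM) in all libraries, which fits the tissue label. The 3 dopamine terminal markers, whose mRNA lies mainly in the cell bodies outside the striatum, summed to 2.87 to 3.48 CPM in acute, 4.26 to 7.06 CPM in chronic unlesioned and 11.0 to 13.9 CPM in chronic lesioned libraries, and they do not measure the lesion. Chronic unlesioned replicate 2 stood apart with 466 CPM of 4 choroid plexus markers, against 0.485 to 3.00 CPM in the other 11 libraries. The 7 cortical glutamatergic markers found in the table were lower in lesioned (1.68 to 22.8 CPM) than in unlesioned libraries (5.35 to 42.3 CPM), with overlap, and the 7 oligodendrocyte markers were lower in chronic lesioned (1140 to 2050 CPM) than in acute lesioned libraries (2060 to 3430 CPM). In tissue RNA of this kind, fewer cells of a type and less RNA per cell cannot be told apart.

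Each gene is described by its main transcript, the model with the highest mean count over the 12 libraries, and CPM values are counts per 1000000 of the library total scaled by TMM, a correction for composition. The sequences upstream of the main starts of Pde4b, Pde1c and Pde10a, whose main transcripts were called in the comparisons below, are given first, because the second messenger that these enzymes degrade acts on transcription through the cAMP response element TGACGTCA. The 200 bases before the outermost annotated start near each main transcript were read from the mm9 assembly (NCBIM37), 5′ to 3′ on the strand of the gene. Models that share exons share reads, so a main transcript does not show which start is used. A Pde1c model that begins farther upstream, at chr6:56319628, held 5.40 CPM in acute unlesioned libraries, against 5.47 CPM for the main transcript.

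Pde4b, innermost start, chr4:102262128-102262327, plus strand: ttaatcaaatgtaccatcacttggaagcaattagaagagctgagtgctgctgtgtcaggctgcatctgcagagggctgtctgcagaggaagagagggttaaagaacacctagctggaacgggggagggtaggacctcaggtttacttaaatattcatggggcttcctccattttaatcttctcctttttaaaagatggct
Pde1c, chr6:56312805-56313004, minus strand: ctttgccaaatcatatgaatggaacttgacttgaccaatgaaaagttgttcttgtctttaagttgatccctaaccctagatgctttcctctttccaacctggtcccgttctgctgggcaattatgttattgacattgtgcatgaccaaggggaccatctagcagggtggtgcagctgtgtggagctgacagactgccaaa
Pde10a, main start, chr17:8994358-8994557, plus strand: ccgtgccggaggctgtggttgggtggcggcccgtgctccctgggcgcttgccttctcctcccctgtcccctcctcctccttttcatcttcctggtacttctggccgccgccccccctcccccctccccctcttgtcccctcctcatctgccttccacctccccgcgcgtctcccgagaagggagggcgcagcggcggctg

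These 3 windows held neither the full element TGACGTCA nor its shorter core TGACG (or CGTCA on the other strand; both lie within the full element) nor the AP-1 element TGACTCA. Windows of the same length before 32851 RefSeq mouse starts (GRCm38) held TGACGTCA in 1.47%, TGACG in 15.7% and TGACTCA in 3.66%. Of the 13 windows before Pde4d start groups, 3 held TGACG, at 194, 22 and 15 bases before the start, and the last of these also held TGACTCA. None of the 10 windows before Pde10a start groups or the 7 before Pde4b start groups held any of these elements. The windows before the main transcripts of Pde1a, Pde1b, Pde2a, Pde4a and Pde8b held none either. A match of letters is a description and no measure of binding. The base composition of the windows differed, from 45.5% G and C before Pde1c and before the innermost Pde4b start to 71% before Pde10a.

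Per length of transcript, Pde1b, Pde10a and Pde2a were the most abundant members. In the authors' normalized expression value, which is scaled by transcript length and library, the main transcript of Pde1b averaged 3.71 ± 0.32 (SD, n = 3) in acute unlesioned striatum, that of Pde10a 2.18 ± 0.13 and that of Pde2a 1.76 ± 0.15. Pde7b (0.608 ± 0.042), Pde4b (0.488 ± 0.0028) and Pde8b (0.256 ± 0.0038) formed a middle range. Pde4a (0.129 ± 0.007), Pde1a (0.0876 ± 0.024), Pde4d (0.0675 ± 0.0015) and Pde1c (0.0296 ± 0.0018) were lowest, and no pair of neighbours in this order overlapped in that group.

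The order changed on the lesioned side. After acute L-DOPA, Pde2a (1.74 ± 0.088) lay above Pde10a (1.51 ± 0.11) without overlap, whereas Pde10a lay above Pde2a on both unlesioned sides. After chronic L-DOPA, the lesioned values of Pde1b (2.63 ± 0.38), Pde2a (2.13 ± 0.29) and Pde10a (1.96 ± 0.22) overlapped from neighbour to neighbour, Pde4b (0.649 ± 0.034) lay above Pde7b (0.451 ± 0.041), and Pde1c rose from the last place to 0.096 ± 0.0075, where it overlapped with Pde1a (0.092 ± 0.023). The main transcript of Pde4d was then the lowest at 0.0782 ± 0.0078, overlapping with Pde1a. This order depends on the model taken: shorter Pde4d models averaged up to 0.102 in chronic lesioned striatum, above the main transcripts of Pde1c and Pde1a.

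**Figure D1:**
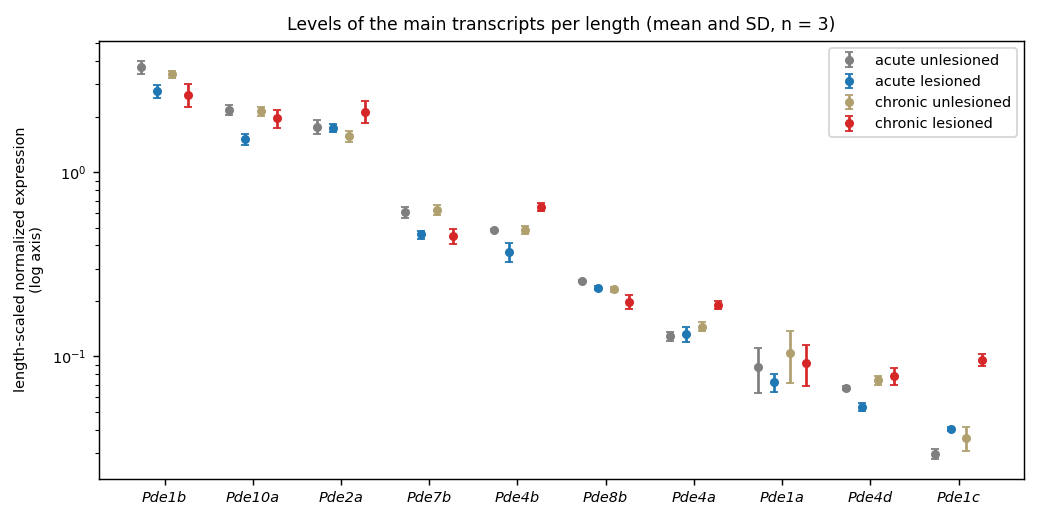
Mean length-scaled normalized expression (log axis) of the main transcript of each of the 10 genes in the 4 groups, with the SD over 3 libraries as whiskers, genes in the order of their level in acute unlesioned striatum. The levels run from 3.71 for Pde1b to 0.0296 for Pde1c in acute unlesioned striatum, and Pde1c reaches 0.096 in chronic lesioned striatum.

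The first comparison asked how the dopamine-depleted striatum differed from the intact side after a single dose of L-DOPA. Pde10a, Pde1b, Pde7b, Pde4b and Pde4d were lower on the lesioned side and Pde1c was higher, while Pde1a, Pde2a, Pde4a and Pde8b did not pass the test. That is 6 of 10 members called at an adjusted p under 0.05 by edgeR's quasi-likelihood test (5 lower, 1 higher), beside 15.3% of the 20402 main transcripts tested (7.16% lower, 8.16% higher). The median difference over the 10 members was -0.26 on the log2 scale, beside 0.02 over the main transcripts of all genes. The groups of 3 did not overlap for 7 members, beside 34.9% of all main transcripts.

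Pde10a fell most among the abundant members. Its 3 unlesioned libraries held 331, 343 and 377 CPM and its 3 lesioned libraries 257, 269 and 228 CPM. All lesioned values lay below all unlesioned ones, and the log2 fold change was -0.48 (SE 0.08), a fold of 0.718, with an adjusted p of 0.00166 in edgeR's quasi-likelihood test.

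Pde1b, the calmodulin-activated enzyme most abundant here, held 311, 328 and 373 CPM on the unlesioned side and 240, 276 and 261 CPM on the lesioned side. The groups did not overlap, and the log2 fold change was -0.38 (SE 0.08, adjusted p = 0.00918 in edgeR). Pde7b held 49.6, 51.9 and 57.5 CPM in unlesioned and 40.4, 43.3 and 39.9 CPM in lesioned libraries. The lesioned values were all lower, with a log2 fold change of -0.36 (SE 0.07, edgeR adjusted p = 0.00459).

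The cAMP-specific Pde4b held 37.7, 37.9 and 38.3 CPM in the unlesioned libraries, an SD of 0.31, and 28.9, 33.6 and 27.0 CPM in the lesioned libraries. The groups were apart by more than this spread, with a log2 fold change of -0.35 (SE 0.07, edgeR adjusted p = 0.0111), a call lost when all transcripts of the gene were summed (-0.31, adjusted p = 0.05). Pde4d, which is less abundant, held 9.44, 8.99 and 9.22 CPM against 7.36, 7.38 and 7.93 CPM, a log2 fold change of -0.28 (SE 0.06, edgeR adjusted p = 0.0122). This call was lost without acute unlesioned replicate 1 (adjusted p = 0.0503 in edgeR) and without acute lesioned replicate 2 (0.0515), with the size almost the same at -0.27 each time.

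Pde1c was the member that rose. It held 5.68, 5.62 and 5.11 CPM on the unlesioned side and 7.75, 7.79 and 7.45 CPM on the lesioned side. The values did not overlap, and the log2 fold change was 0.49 (SE 0.07, fold 1.40, edgeR adjusted p = 0.000682).

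The other 4 members gave log2 differences of -0.25 (SE 0.15) for Pde1a, 0.04 (SE 0.07) for Pde2a, 0.09 (SE 0.07) for Pde4a and -0.06 (SE 0.06) for Pde8b. The 95% intervals ran from -0.10 to 0.18 for Pde2a and from -0.05 to 0.23 for Pde4a. Pde1a was set by 1 library, acute unlesioned replicate 1, with 10.4 CPM against 6.72 and 6.60 CPM in the other 2 of its group, and its difference was 0.01 without it.

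Cell type markers moved in the same comparison. Of the 5 markers that both kinds of spiny neuron share, 3 were called lower and none higher, and their sum was 1010 to 1220 CPM in acute unlesioned and 894 to 1000 CPM in acute lesioned libraries. Of 5 D1 neuron markers, 4 were called lower and 1 higher, with a sum of 175 to 187 CPM against 132 to 144 CPM. All 5 D2 neuron markers were called higher, with a sum of 510 to 601 CPM against 874 to 946 CPM. Of the glial markers, 3 of 7 microglial, 2 of 7 oligodendrocyte and 2 of 6 astrocyte genes were called higher and none lower. The microglial sum was 73.5 to 78.1 CPM in unlesioned and 81.9 to 99.1 CPM in lesioned libraries, and the astrocyte sum 511 to 567 CPM against 569 to 730 CPM, neither with overlap, while the oligodendrocyte sums overlapped. Their part in the differences of the phosphodiesterases was not tested.

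**Figure D2:**
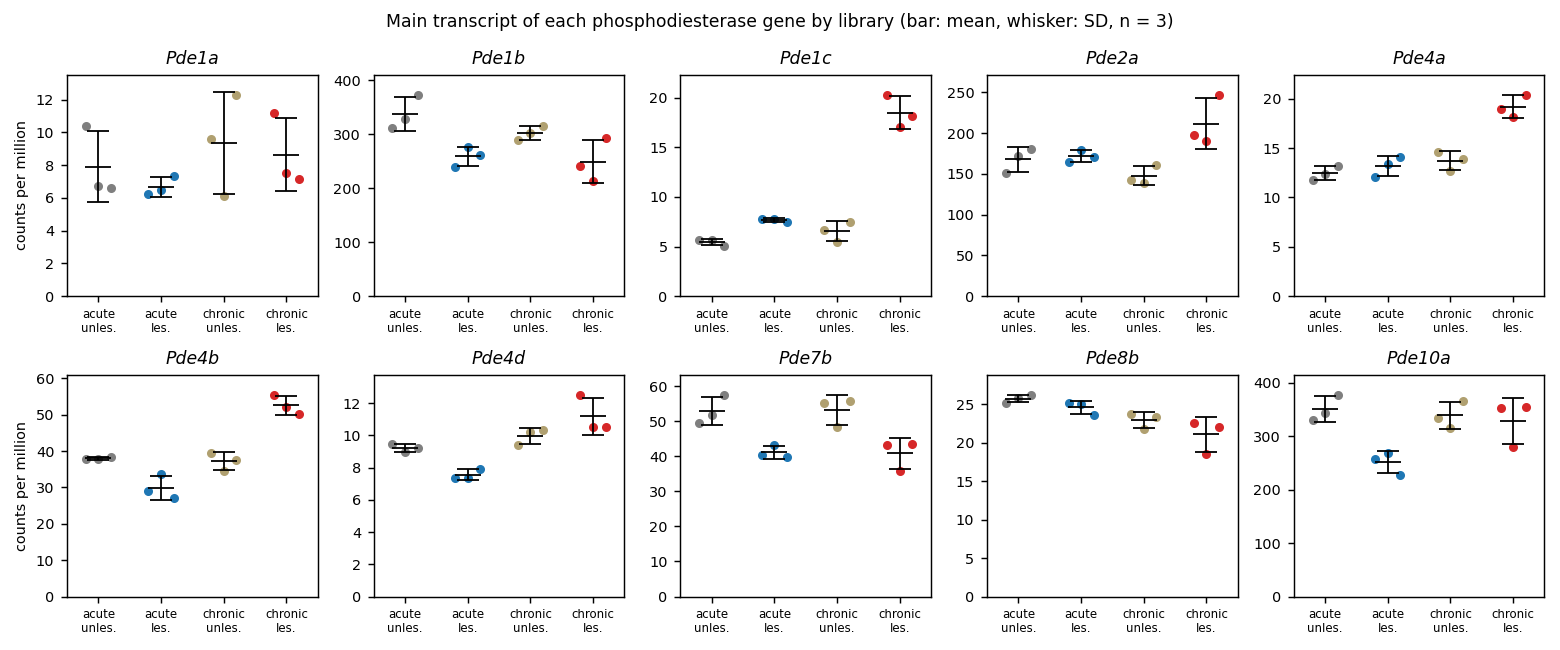
CPM of the main transcript of each of the 10 genes in each library (points), with the mean and SD of the 3 libraries of a group. The acute lesioned points of Pde10a, Pde1b, Pde4b, Pde4d and Pde7b lie below the acute unlesioned ones, and the chronic lesioned points of Pde1c (17.0 to 20.3 CPM) lie above all others.

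After chronic L-DOPA the same contrast, lesioned against unlesioned striatum, gave 4 members higher and 1 lower. Pde1c, Pde2a, Pde4b and Pde4a were higher on the lesioned side, and Pde7b was lower, as 5 of 10 members called in edgeR, beside 13.7% of the 19741 main transcripts tested (8.45% higher, 5.20% lower). The median over the members was 0.06, beside -0.01 over all genes. The groups did not overlap for 6 members, beside 32.3% of all main transcripts.

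Pde1c showed the largest difference of any member. It held 6.72, 5.45 and 7.50 CPM in the unlesioned libraries and 20.3, 17.0 and 18.2 CPM in the lesioned ones. The lowest lesioned value exceeded the highest unlesioned one by more than the SD of either group (1.0 and 1.7 CPM), and the log2 fold change was 1.49 (SE 0.12), a fold of 2.82, with an edgeR adjusted p of 2.07e-05. It stayed between 1.38 and 1.60 when any 1 library was left out.

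Of the cAMP-specific enzymes, Pde4b held 39.4, 34.6 and 37.6 CPM on the unlesioned side and 55.4, 52.1 and 50.1 CPM on the lesioned side. The groups did not overlap and the log2 fold change was 0.50 (SE 0.08, edgeR adjusted p = 0.00304). Pde4a held 14.6, 12.7 and 13.9 CPM against 19.0, 18.1 and 20.4 CPM, again without overlap, with a log2 fold change of 0.48 (SE 0.08, edgeR adjusted p = 0.00439). Pde4d held 9.40, 10.2 and 10.3 CPM against 12.5, 10.5 and 10.5 CPM, and its log2 difference of 0.16 (SE 0.09, edgeR adjusted p = 0.312) did not pass the test.

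Pde2a, through which cGMP speeds the breakdown of cAMP, held 143, 139 and 161 CPM in unlesioned and 197, 190 and 247 CPM in lesioned libraries. Every lesioned value was higher, and the log2 fold change was 0.52 (SE 0.11, edgeR adjusted p = 0.0121), with the call lost without chronic unlesioned replicate 1 (adjusted p = 0.052 in edgeR). Pde7b held 55.3, 48.3 and 55.9 CPM against 43.3, 35.8 and 43.5 CPM, without overlap. Its log2 fold change of -0.38 (SE 0.10, edgeR adjusted p = 0.0318) was the weakest call, lost in 5 of the 6 fits without a library, all but that without chronic unlesioned replicate 2, with values from -0.44 to -0.28.

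Pde10a and Pde1b, the most abundant members, were not called after chronic L-DOPA. Pde10a held 334, 316 and 366 CPM on the unlesioned and 352, 279 and 354 CPM on the lesioned side, where chronic lesioned replicate 2 was the low value. The groups overlapped, and the log2 difference was -0.04 (SE 0.10, 95% interval -0.25 to 0.16). Pde1b held 290, 302 and 315 CPM against 241, 214 and 292 CPM, with a log2 difference of -0.28 (SE 0.11, edgeR adjusted p = 0.137). With the replicate number as a block, which pairs the sides, Pde1b was called lower (-0.29, edgeR adjusted p = 0.0147). It was also called without chronic lesioned replicate 3 (-0.40, adjusted p = 0.0395 in edgeR), and its values with a library left out ran from -0.40 to -0.17. Pde1a (-0.12, SE 0.23) and Pde8b (-0.13, SE 0.09) did not pass.

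The 5 D1 neuron markers summed to 170 to 211 CPM in chronic unlesioned and 295 to 344 CPM in chronic lesioned libraries (2 called higher, 2 lower), the 5 D2 neuron markers to 505 to 541 CPM against 801 to 1070 CPM (2 called higher), and the 5 shared spiny neuron markers to 1020 to 1190 CPM against 810 to 1100 CPM with none called. The astrocyte sum was 510 to 599 CPM against 607 to 637 CPM, without overlap, with 1 of 6 genes called higher. The part of these changes in the results for the phosphodiesterases was not tested. Without chronic unlesioned replicate 2, the library with choroid plexus transcripts, 5 members were called as before.

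**Figure D3:**
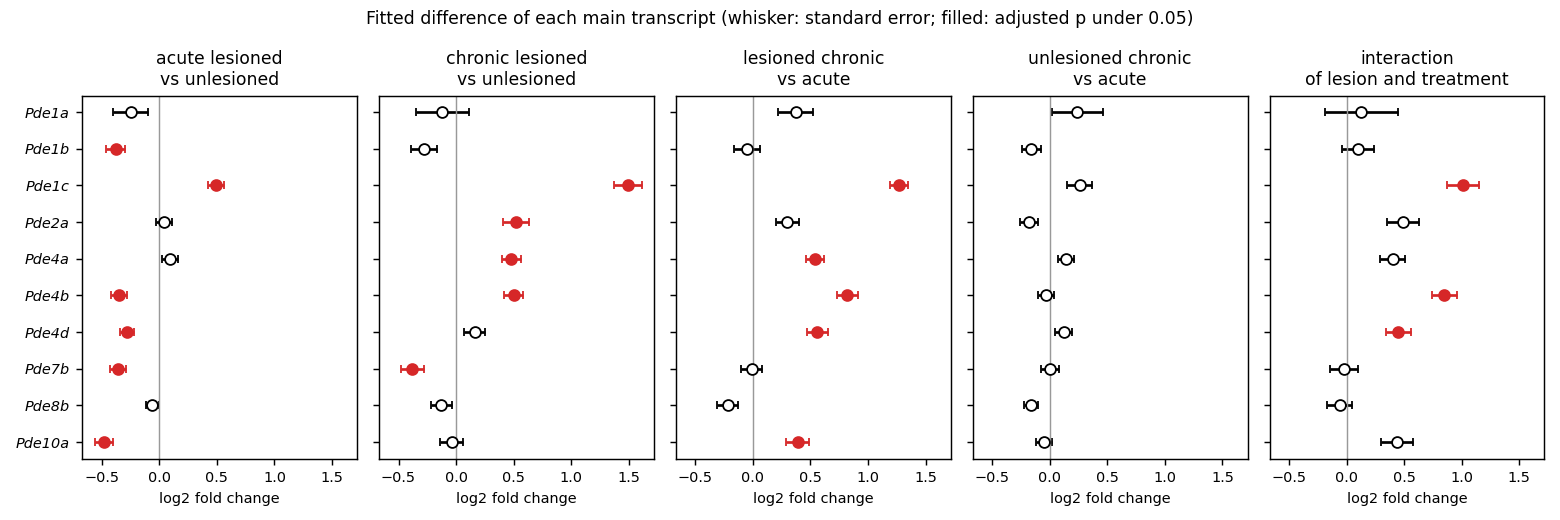
Fitted log2 fold change of the main transcript of each gene (point) with its standard error (whisker) in the 5 comparisons; filled red points have an adjusted p under 0.05 in edgeR's quasi-likelihood test. The Pde1c points lie at 0.49 and 1.49 in the lesion comparisons, Pde4b changes sign between them (-0.35 and 0.50), and no point is filled in the unlesioned comparison.

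Whether the effect of the lesion differed between chronic and acute L-DOPA was tested by an interaction over all 12 libraries. It was positive and called for Pde1c (1.01, SE 0.14, edgeR adjusted p = 0.000745), Pde4b (0.85, SE 0.11, adjusted p = 0.000478) and Pde4d (0.45, SE 0.11, adjusted p = 0.0305), that is for 3 of 10 members, beside 5.10% of the 20682 main transcripts tested (3.53% higher, 1.56% lower). The call of Pde4d was lost in 7 of the 12 fits without a library (adjusted p up to 0.0861 in edgeR) and with summed transcripts (0.0534). For Pde4b the lesion effect went from lower to higher, and for Pde1c from higher to higher still. Pde2a (0.49, SE 0.14, adjusted p = 0.0629), Pde10a (0.44, SE 0.14, 0.0842) and Pde4a (0.40, SE 0.11, 0.0595) had differences of similar size to that of Pde4d and missed the threshold in edgeR.

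When same-numbered sides were paired within a treatment, these 3 were called too, with edgeR adjusted p-values of 0.00273 for Pde2a, 0.0176 for Pde10a and 0.00595 for Pde4a, which makes 6 of 10. DESeq2 also called 6, and so did edgeR without chronic lesioned replicate 2. Calls over all transcripts rose under these settings too, from 5911 to 15876 with the pairing, 7872 in DESeq2 and 9536 without that library. Pde1b (0.10, SE 0.14), Pde1a (0.13, SE 0.32), Pde7b (-0.02, SE 0.12) and Pde8b (-0.06, SE 0.11) gave small differences, and for Pde7b the 95% interval ran from -0.26 to 0.23.

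The comparison of treatments within the lesioned side, which shares its libraries with the lesion comparisons above, asked how lesioned striatum differed between treatments. Pde1c, Pde4b, Pde4d, Pde4a and Pde10a were higher in chronic than in acute lesioned striatum, 5 of 10 members, none lower, beside 25.6% of the 19789 main transcripts tested (12.5% higher, 13.1% lower). The log2 fold changes were 1.27 (SE 0.08) for Pde1c, 0.82 (SE 0.09) for Pde4b, 0.56 (SE 0.09) for Pde4d, 0.54 (SE 0.08) for Pde4a and 0.39 (SE 0.10) for Pde10a, with edgeR adjusted p-values of 4.15e-06, 0.000169, 0.00164, 0.00144 and 0.0218. The call of Pde10a was lost without acute lesioned replicate 3, chronic lesioned replicate 1 or chronic lesioned replicate 3 (adjusted p of 0.0759, 0.0969 and 0.0728 in edgeR). Pde2a (0.30, SE 0.10, adjusted p = 0.0527) missed the threshold in edgeR and was called by DESeq2 (0.0258), without the filter on low counts (0.0327), with 1 main transcript per gene (0.0479), in the fit over all 12 libraries (0.0338) and without chronic lesioned replicate 2 (0.0109). It was not called with the replicate block (edgeR adjusted p = 0.0745) and fell to 0.17 without chronic lesioned replicate 3 (0.159). Pde7b stood at -0.01 (SE 0.09). Pde8b (-0.22, SE 0.09, adjusted p = 0.09) was called lower only in the fit over all 12 libraries (edgeR adjusted p = 0.0394), and Pde1a (0.37, SE 0.15) was called higher only without chronic lesioned replicate 2 (0.0384). Over the 10 members the median was 0.38, beside -0.02 over all genes, and the groups did not overlap for 7 members, beside 42.1% of all main transcripts.

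In that comparison all 7 oligodendrocyte markers and 5 of 7 microglial markers were called lower in chronic lesioned striatum, as were 3 of 6 astrocyte, 2 of 3 cholinergic interneuron, 3 of 5 D2 neuron and 2 of 3 blood markers, and 4 of 5 D1 neuron markers were called higher. The cholinergic sum was 20.2 to 25.4 CPM in acute and 16.4 to 18.4 CPM in chronic lesioned libraries, without overlap. The microglial sum was 81.9 to 99.1 CPM in acute and 54.1 to 67.7 CPM in chronic lesioned libraries. Their part in the values of the phosphodiesterases was not tested.

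On the unlesioned side, chronic against acute L-DOPA, 0 of 10 members were called by edgeR, and 0 by DESeq2, beside 3.07% of the 20292 main transcripts tested (1.07% higher, 1.99% lower). At an unadjusted p under 0.05 there were 3 in edgeR, where 27741 of all 129187 transcripts tested were also under it. These were Pde1c (0.26, SE 0.11), Pde2a (-0.18, SE 0.08) and Pde8b (-0.16, SE 0.06). The groups did not overlap for 1 member, Pde8b, at 25.2, 25.8 and 26.2 CPM in acute and 23.7, 21.8 and 23.4 CPM in chronic libraries, beside 26.4% of all main transcripts. Without chronic unlesioned replicate 2 the difference of Pde1c was 0.37 and was called (edgeR adjusted p = 0.0152).

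Of the 175 models, 163 had enough counts to be tested in each comparison, and 63 were called after acute L-DOPA (19 higher, all of Pde1c, and 44 lower), beside 12.9% of all 129674 transcripts tested (6.85% higher, 6.02% lower). After chronic L-DOPA 67 were called (59 higher, 8 lower, the latter all of Pde7b), beside 12.0% of 127063 (7.71% higher, 4.33% lower). In lesioned striatum, chronic against acute, 10 of 18 Pde1a models were called higher (median 0.54), although the main transcript was not (0.37, SE 0.15, edgeR adjusted p = 0.103), and 1 of 25 tested Pde8b models was called lower, beside 23.3% of all transcripts tested (12.1% higher, 11.2% lower). With the replicate block no Pde1a model was called. Without chronic lesioned replicate 1 the main Pde1a transcript stood at 0.14 (adjusted p = 0.386 in edgeR). Models of 1 gene share exons and reads, so they are not independent.

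**Figure D4:**
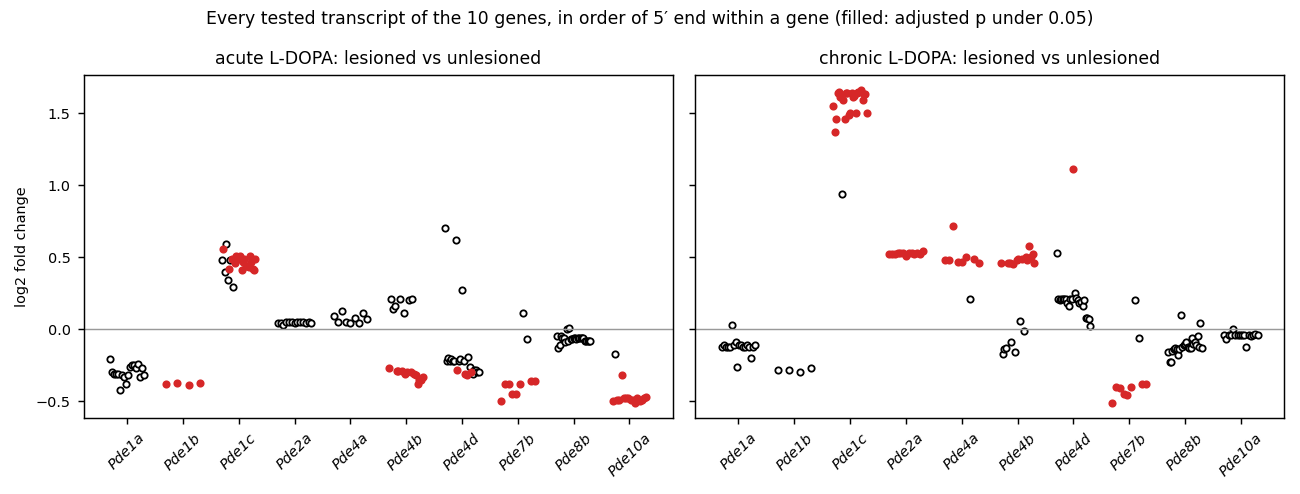
Log2 fold change of lesioned against unlesioned striatum for each of the 163 tested transcript models of the 10 genes, after acute (left) and chronic (right) L-DOPA, ordered within a gene by 5′ end; filled red points have an edgeR adjusted p under 0.05. The models of a gene form a tight row, as for Pde2a at 0.51 to 0.54 after chronic L-DOPA, and a few short models depart from it.

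Nearly the whole Pde1c locus (main transcript NM_001025568, chr6:56050433-56312386, minus strand, 17 exons) rose together. After chronic L-DOPA 24 of its 25 models were called higher, with log2 fold changes from 0.94 to 1.66 over all 25. The exception was a model of 2 exons at the 5′ end (chr6:56291781-56312307) with 0.0637 CPM in unlesioned and 0.124 CPM in lesioned libraries, near the depth limit. Models ending at the proximal 3′ exon had the higher level and those that end farther 3′ rose as much, with 6.56 against 18.5 CPM for NM_001025568 and 2.28 against 7.11 CPM for NM_001159953.

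For Pde2a all 13 models were called after chronic L-DOPA, and for Pde4a 8 of 9. For Pde1b all 4 models were called lower after acute L-DOPA. For Pde7b (AK035385, 13 exons) 8 of 10 models were called lower after each treatment, and the 2 that were not both begin at the upstream start and have 2 and 3 exons. The model of 2 exons held 1.72 CPM in acute unlesioned, 1.84 in acute lesioned, 1.39 in chronic unlesioned and 1.60 in chronic lesioned libraries. Models of Pde7b that begin at internal starts near chr10:20268134 share its 3′ exons and fell with it, at -0.45 to -0.38 after acute L-DOPA. Whether the upstream and the internal starts differ was not tested.

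Pde4b, Pde4d and Pde10a have many annotated starts, and models were grouped where their 5′ ends lay within 1000 bases of each other, keeping groups with a model of at least 1 CPM. The highest model of each group mostly carries the reads of the shared 3′ exons. Beside the 12.9% of all transcripts called after acute and 12.0% after chronic L-DOPA, all 10 Pde10a groups were called lower after acute (-0.50 to -0.47) and none after chronic L-DOPA (-0.05 to -0.03), and all 7 Pde4b groups were called lower after acute (-0.35 to -0.27) and higher after chronic L-DOPA (0.45 to 0.50). The acute calls of 5 of these 7 groups were lost without acute unlesioned replicate 2 (edgeR adjusted p of 0.0526 to 0.13), all but those of NM_001177981 and AK165790. Of 13 Pde4d groups, 3 were called lower after acute L-DOPA (-0.31 to -0.19 over all 13) and none after chronic (0.08 to 0.22). All 13 were called higher in chronic than in acute lesioned striatum (0.35 to 0.69), beside 23.3% of all transcripts called there (12.1% higher).

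The main Pde10a transcript was NM_011866 (chr17:8994610-9179513, 22 exons, 7717 bases). A model that shares its 3′ end and later exons begins farther 3′, and the difference between both counts gives the reads that lie wholly in the main first exon, less those in the shorter first exon of the other model. The difference was 7.26, 6.89 and 8.88 CPM in acute unlesioned and 6.41, 6.75 and 6.56 CPM in acute lesioned libraries. The groups did not overlap, at a log2 ratio of means of -0.22, and the exact two-sided permutation p was 0.10, the smallest that 3 against 3 libraries can give. After chronic L-DOPA the difference was 7.39 ± 0.96 CPM in unlesioned and 7.61 ± 0.77 CPM in lesioned libraries (SD, n = 3), with overlap. The long upstream models, which begin near chr17:8718237, could not be set apart in this way, and a 5-exon model of their 5′ part held 6.83 CPM in acute unlesioned and 6.06 CPM in acute lesioned libraries (log2 -0.17, edgeR adjusted p = 0.209).

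For Pde4b, reads could be counted at the innermost and the intermediate start and on the exons of the long form. The main transcript NM_001177981 (chr4:102262448-102279867, 10 exons, 3746 bases) begins at the innermost annotated start, the one whose upstream bases are shown above, and differs from NM_001177982 only in its first exon (264 bases longer). The reads gained by this exon were 1.70, 1.77 and 2.06 CPM in acute unlesioned libraries and 0.796, 1.13 and 0.904 CPM in acute lesioned ones. In chronic unlesioned libraries they were 2.01, 1.64 and 2.02 CPM, and in chronic lesioned ones 3.36, 3.12 and 3.12 CPM. The groups did not overlap in either lesion comparison, with a log2 ratio of means of -0.97 after acute and 0.76 after chronic L-DOPA, against -0.35 and 0.50 for the whole transcript.

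Between acute and chronic lesioned striatum these reads differed by a fold of 3.39 (log2 1.76, 1.65 to 1.91 with any 1 library left out), and between both unlesioned groups by a fold of 1.02. The exact two-sided permutation p was 0.10 for each of the 3 comparisons that involve a lesioned group, the smallest possible with 3 against 3 libraries. The difference rests on 97 to 342 reads a library.

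The long form of Pde4b was NM_019840 (chr4:101927544-102279867, 15 exons). Its upstream exons may also belong to long models from other starts. The reads on the exons that it has beyond NM_001177982 were 1.98, 2.09 and 1.57 CPM in acute unlesioned, 2.29, 2.34 and 1.76 CPM in acute lesioned, 1.59, 1.90 and 1.78 CPM in chronic unlesioned and 1.65, 1.92 and 1.37 CPM in chronic lesioned libraries. The groups overlapped in both lesion comparisons, with log2 ratios of 0.18 and -0.09. After acute L-DOPA each lesioned value lay above the same-numbered unlesioned one, and after chronic L-DOPA that of replicate 3 lay below. The intermediate start of NM_001177980 gave 0.307 to 0.612 CPM in every library, with log2 ratios of 0.20 and 0.11 and overlap. Short models confined to the 5′ part of the gene, such as NM_001177983 (6 exons), gave 0.16 after acute and -0.13 after chronic L-DOPA, neither called in edgeR. The difference between the innermost start and the long form was not tested itself.

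**Figure D5:**
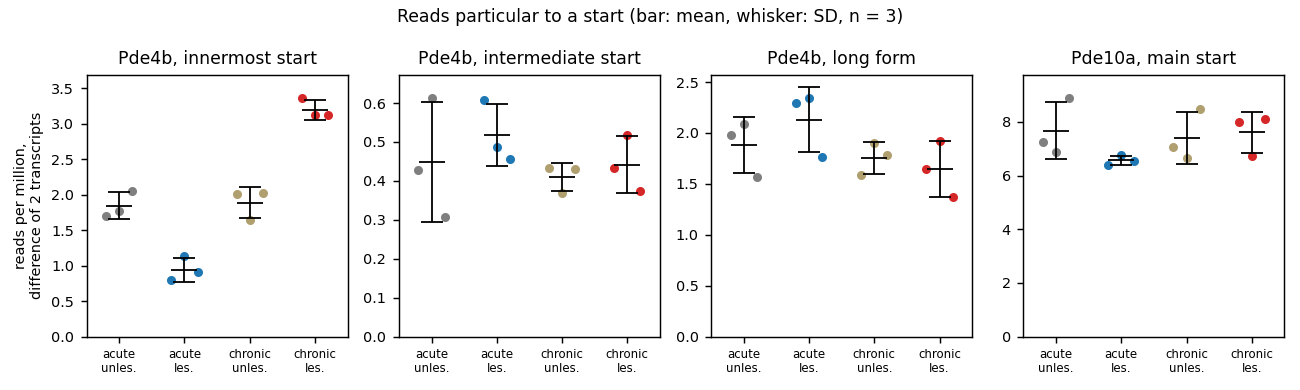
Reads per 1000000, each the difference of the counts of 2 transcript models, in each library (points) with mean and SD of 3 libraries. They are given for the innermost start, the intermediate start and the long form of Pde4b and for the main start of Pde10a. The reads of the long form may include those of long models from other starts. For the innermost Pde4b start the group means are 1.85, 0.945, 1.89 and 3.20, while the long form lies between 1.37 and 2.34 in every library.

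The main Pde4d transcript was NM_011056 (chr13:110530594-110746177, 14 exons, 6598 bases). Its other start groups could not be separated, since models that begin between chr13:110050848 and chr13:110530594 and share their 3′ exons differed little in level, at 3.22 to 3.44 CPM in acute unlesioned striatum. A single-exon model at chr13:110693267-110695744, at the start of the shorter forms, was the only Pde4d model called after chronic L-DOPA, at 0.176 CPM in unlesioned and 0.387 CPM in lesioned libraries (log2 1.11, edgeR adjusted p = 0.0199), and it rests on at most 43 counts a library. Pde4d is the member with most models under the count limit, 10 of 33.

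Across the 12 libraries the members fell into patterns that followed the groups. Pearson's r of log2 CPM was 0.93 between Pde1c and Pde4a, 0.88 between Pde1b and Pde7b, 0.84 between Pde4b and Pde4d and 0.73 between Pde10a and Pde7b, and it was -0.67 between Pde1b and Pde1c. These are descriptions over libraries that share 4 groups. Of 12797 genes with at least 1 CPM, those with the pattern most like Pde4b over the 12 libraries included Nceh1 (r = 0.971), Dlg3 (0.970), Cdkl2 (0.969) and Naa25 (0.967). For Pde10a the 5 most alike were Pdpk1 (0.973), Atf6 (0.961), Pitpnc1 (0.957), Add2 (0.947) and Fgf14 (0.946), and for Pde4d Ndufs1 (0.955), Psmd12 (0.948), Pgam5 (0.946), AK051343 (0.945) and Zfp804a (0.942).

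Of the 14 other phosphodiesterase genes, 10 could be tested. After acute L-DOPA Pde3b (0.32, SE 0.09) and Pde4c were called higher and none lower, leaving aside Pde6b, and after chronic L-DOPA none was called in the 2-group fit, beside 15.3% and 13.7% of all main transcripts. Pde4c, the remaining cAMP-specific Pde4 gene, held 0.262, 0.439 and 0.330 CPM in acute unlesioned and 0.781, 1.11 and 1.05 CPM in acute lesioned libraries, without overlap. Its log2 fold change was 1.52 (SE 0.21, edgeR adjusted p = 0.000583) after acute and 0.51 (SE 0.22, adjusted p = 0.182) after chronic L-DOPA, so that it ran opposite to Pde4b and Pde4d after the single dose. Pde6b, the rod photoreceptor enzyme, also passed the threshold after acute L-DOPA, but on 1 to 4 counts in the unlesioned libraries against 18 to 26 in the lesioned ones. It passed the filter on low counts only through the latter, and after chronic L-DOPA it had 4 to 11 counts against 11 to 24, so that no size or call is given for it in the lesion comparisons. In lesioned striatum, chronic against acute L-DOPA, 1 of these genes was called higher and 3 lower, beside 25.6% of all main transcripts. The cGMP-specific Pde9a was higher (1.07, SE 0.20), and Pde4c (-1.02, SE 0.20), Pde8a (-0.74, SE 0.16) and Pde3b (-0.36, SE 0.10) were lower.

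Of 16 genes of cyclases, the enzymes that make cyclic nucleotides, 14 were tested, and 1 was called higher and 1 lower in each lesion comparison, beside 15.3% of all main transcripts after acute and 13.7% after chronic L-DOPA, with a median of 0.04 each time, beside 0.02 and -0.01 over all genes. Adcy9 was lower after acute (-0.35, SE 0.06) and chronic L-DOPA (-0.52, SE 0.14), and the natriuretic peptide receptor Npr2, a guanylyl cyclase, was higher after chronic L-DOPA (0.55, SE 0.09).

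Of 16 cyclic nucleotide effectors, 1 was called higher and 1 lower after acute, and 3 higher and none lower after chronic L-DOPA, near the same shares of 15.3% and 13.7%. The latter were the protein kinase A subunits Prkacb (0.38, SE 0.09) and Prkar1b (0.30, SE 0.07) and the channel Hcn3, which rose from 1.95, 2.29 and 1.94 CPM to 2.89, 4.10 and 3.84 CPM (log2 0.82, SE 0.14, edgeR adjusted p = 0.00402). Of 11 partners and anchors of these enzymes, 1 was called higher and 1 lower after acute, and 1 higher and 2 lower after chronic L-DOPA, again beside 15.3% and 13.7%. The scaffold Gnb2l1 was higher after acute (0.19, SE 0.05) and the anchor Akap9 lower after chronic L-DOPA (-0.53, SE 0.11). The kinase anchor Akap5 was lower after acute (-0.75, SE 0.07) and chronic L-DOPA (-0.49, SE 0.14), the latter call lost in 5 of the 6 fits without a library and with summed transcripts, and Akap12 was higher after chronic L-DOPA (1.27, SE 0.18), at 6.08 to 7.43 CPM against 1.88 to 3.37 CPM, a call lost in the fit over all 12 libraries (edgeR adjusted p = 0.125). After acute L-DOPA Akap12 varied widely between libraries, at 5.85, 17.1 and 3.33 CPM in unlesioned and 10.4, 25.0 and 6.00 CPM in lesioned ones, each lesioned value above the same-numbered unlesioned one. It was not called without pairing (0.65, SE 0.53) and was called with it (0.73, edgeR adjusted p = 5.7e-06).

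Of 14 genes of the dopamine and protein kinase A pathway, 4 were called higher and 3 lower after acute, and 1 higher and 3 lower after chronic L-DOPA, beside 15.3% and 13.7% of all main transcripts. The D1 receptor gene Drd1a held 69.0, 62.6 and 68.3 CPM in acute unlesioned and 11.2, 15.0 and 14.3 CPM in acute lesioned libraries (log2 -2.30, SE 0.10), and 76.1, 65.6 and 68.9 CPM against 29.3, 22.1 and 32.7 CPM after chronic L-DOPA (-1.32, SE 0.13). The cAMP-responsive gene Crem was higher after acute (0.88, SE 0.13) and chronic L-DOPA (1.51, SE 0.12), without overlap in either.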

How the data were processed

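RNA of 12 striatal libraries (TruSeq kit, Genome Analyzer II) was mapped by the authors to mm9 with the Genomatix Mining Station. The deposited table gives, for each of 189660 transcript models, read counts, used for all tests, and normalized expression, a signal that the authors scaled by length and library, used here only for levels between genes. Strand and multi-mapping are not given in the sources used here, so antisense reads, or reads shared with near-identical copies, cannot be told apart; no exon of another GENCODE vM1 gene overlaps the members' exons. Of the models, 296 without a gene name (0.0485% of counts) were left out, as were the columns of the authors' own comparisons, made with DESeq, and 36 columns of values per sample.

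Counts as deposited were tested over all transcripts with edgeR 4.0.16 (R 4.3.3; filterByExpr by group, TMM, quasi-likelihood, Benjamini-Hochberg, adjusted p under 0.05), with the 2 groups compared, or 12 libraries for the interaction, in each fit; SE is the log2 fold change over the root of F, and intervals are 95% normal ones. On simulated acute counts (128736 transcripts) 69 of 86 changes of log2 1 and 108 of 114 of log2 2 were recovered, with 28 false among 205 calls. For the interaction (129849 transcripts) 43 of 88 and 101 of 112 were recovered, with 17 false among 161 calls. In both, the threshold of 0.05 let through a larger share of false calls than its nominal one.

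The members and gene lists were chosen with earlier results of these data known. Named were the members, start groups, list genes called with a fold of at least 1.5 in a lesion comparison, at most 3 others a list, and the 5 genes most alike in pattern (Pearson's r of log2(CPM + 0.5)). Some items (a marker, a gene alike in pattern and an upstream sequence) are not reported here. Reads at starts were added after the data were seen. CPM use TMM totals over the 12 libraries. A count of 3 corresponds to 0.0173 to 0.0342 CPM of the library's total. Counting error is not small beside replicate spread for every member. In acute unlesioned libraries Pde4b held 5104 to 6609 counts, with an SD of only 0.31 around a mean of 37.9 CPM.

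The labels speak of 12 mice and the study uses the unlesioned side as each mouse's own control. Deviations from the group means of same-numbered lesioned and unlesioned libraries correlated in every pair (r = 0.390 to 0.478 acute, 0.151 to 0.565 chronic, over 12797 genes), so the numbers were taken to pair the sides, from the data. Pairs of different numbers gave -0.321 to -0.109 in acute and -0.516 to 0.156 in chronic groups. The chronic pair of number 3 (0.151) was thus not closer than a mismatched pair (0.156). Its pairing is uncertain, and the blocked chronic and interaction values rest on it. Where libraries share a mouse, p-values without the block treat them as separate. Replicates differed beyond sampling noise (chi-square per degree of freedom 7.4 to 28.7). Alternatives were DESeq2 1.42.0, its size factors in edgeR, no filter on low counts, adjusted p under 0.01, 1 main transcript or the summed transcripts per gene, all 12 libraries in 1 fit, the replicate block and leaving out each library.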

Additional observations from a re-analysis of the deposited data

Results flagged for a closer look

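For 3 members the effect of the lesion differed between chronic and acute L-DOPA in the interaction over 12 libraries (edgeR's quasi-likelihood test, Benjamini-Hochberg). For Pde1c the lesion effect after chronic L-DOPA exceeded that after acute L-DOPA by 1.01 on the log2 scale (SE 0.14, adjusted p = 0.000745), with every lesioned library above every unlesioned one after both treatments. For Pde4b the difference was 0.85 (SE 0.11, adjusted p = 0.000478 in edgeR), with every lesioned library below the unlesioned ones after acute and above them after chronic L-DOPA. For Pde4d it was 0.45 (SE 0.11, adjusted p = 0.0305 in edgeR), and this call was lost in 7 of the 12 fits without a library.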

How the results depend on the processing

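All calls of members kept their direction under every alternative. The count of members called after chronic L-DOPA was 3 at an adjusted p under 0.01, in place of 5, and 3 to 5 with a library left out, the lowest without chronic unlesioned replicate 1. For the interaction it was 6 in DESeq2 and 6 with the replicate block, in place of 3, and 2 to 6 with a library left out, the highest without chronic lesioned replicate 2. In lesioned striatum, chronic against acute, it was 4 to 7 in place of 5. On the unlesioned side it was 0 to 1 with a library left out, the call being Pde1c without chronic unlesioned replicate 2. The cause was not tested. Summed over all transcripts of a gene, Pde4b after acute L-DOPA (log2 -0.31) and Pde4d in the interaction (0.46) lost their calls (adjusted p of 0.05 and 0.0534), and Pde4a gained one in the interaction (0.42, adjusted p of 0.0457).

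Some values that were not called changed sign. Pde7b in lesioned striatum, chronic against acute, was 0.00 with 1 main transcript per gene and 0.02 with summed transcripts, and on the unlesioned side -0.00 with no filter, where Pde4c was 0.11 with summed transcripts. With a library left out, the acute lesion difference ran from -0.36 to 0.01 for Pde1a, from -0.03 to 0.09 for Pde2a and from -0.08 to 1.57 for Akap12. The chronic one ran from -0.09 to 0.07 for Pde10a and from -0.35 to 0.13 for Pde1a. In lesioned striatum, chronic against acute, it ran from -0.19 to 0.05 for Pde1b, from -0.06 to 0.08 for Pde7b and, on only 11 to 26 counts a library, from -0.54 to 0.11 for Pde6b. On the unlesioned side it ran from -0.11 to 0.00 for Pde10a, from -0.02 to 0.49 for Pde1a, from -0.07 to 0.02 for Pde4b, from -0.03 to 0.07 for Pde7b and from -0.19 to 0.20 for Pde4c. The interaction ran from -0.03 to 0.21 for Pde1b, from -0.12 to 0.39 for Pde1a, from -0.08 to 0.08 for Pde7b, from -0.11 to 0.03 for Pde8b and from -0.30 to 1.36 for Akap12.

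With the replicate block, which pairs the sides, 28237 transcripts were called after acute L-DOPA in place of 16684, 27505 after chronic in place of 15295 and 15876 for the interaction in place of 5911; beside Pde1b after chronic L-DOPA and Pde2a, Pde4a and Pde10a in the interaction it changed no call of a member in these 3 comparisons. Of the other genes named, the pairing added calls in the interaction for Pde4c (-1.01), Akap5 (0.26) and Crem (0.63). Between treatments the samples share only a number (r of same-numbered deviations -0.164 to 0.248, and not every sample correlated best with its own number), and the block gave 27758 calls in place of 29698 in lesioned and 2817 in place of 3366 in unlesioned striatum, with every call of a member's main transcript as without it, while the 10 Pde1a models called in lesioned striatum fell to 0. With a library left out the calls over all transcripts fell to as few as 9547 after acute (without acute unlesioned replicate 3), 9137 after chronic (without chronic unlesioned replicate 3), 16025 in lesioned (without chronic lesioned replicate 1), 66 in unlesioned striatum (without acute unlesioned replicate 2) and 3794 for the interaction (without acute unlesioned replicate 3), and rose to as many as 14377 in unlesioned striatum and 9536 for the interaction, without chronic unlesioned and chronic lesioned replicate 2. DESeq2 called 6278 in unlesioned striatum.

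Reads at the Pde4b starts are few, count only reads wholly within the exons in question, and come from 3 libraries a group, where an exact test cannot go below 0.10. Models near 3 counts a library carry no direction.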
